A study of Mus musculus with 19 samples.

Results

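HP1 readers, the TRIM28 corepressor and the silencers linked to the HUSH complex were followed as 10 genes: Cbx1, Cbx3, Cbx5, Trim28, Mphosph8, Morc2a, Atf7ip, Smarcad1, Atrx and Daxx. They were chosen by symbol as readers of H3K9 methylation and their silencing partners, and all 10 were found among the 16842 genes listed in any set of the gene counts. The study made RNA-seq libraries from fresh mouse bone marrow. It had 19 libraries in 6 groups, each a cell fraction from mutant (MT) or wild-type (WT) mice, and its stated subject is mutant ASXL1 protein in clonal hematopoiesis and chronic myelomonocytic leukemia. Cd11b+ myeloid cells of 4 months (young) had 3 MT and 4 WT libraries. Cd11b+ cells of 18 months (old) had 3 MT and 3 WT libraries. LK cells of 18 months, which lack lineage markers and carry c-Kit, also had 3 MT and 3 WT libraries. The labels give no allele, driving promoter, strain, sex or batch and no number of animals per library, so p-values measure the spread between libraries, which may in part be technical.

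Heterochromatin is marked by methylation of histone H3 at lysine 9. HP1 proteins bind that mark through a chromodomain and recruit further silencing factors. TRIM28 is brought to DNA by KRAB zinc finger proteins and recruits the methyltransferase SETDB1, for which ATF7IP is a stabilising partner. The HUSH complex reads the same mark through MPHOSPH8 and works with the ATPase MORC2 to silence long intronless and retroelement transcripts. ATRX and DAXX place the histone variant H3.3 at repeats, and SMARCAD1 is a remodeller that keeps silent chromatin through replication. In blood-forming cells these factors are known for holding endogenous retroviruses silent.

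Sequence before the start site is shown for 4 of the 5 genes that differed most between LK genotypes, so that the gene that rose can be set beside genes that fell. Sequences are from RefSeq, build GRCm38.p6, 5′ to 3′ on the gene's strand. Each window of 250 bases before an annotated RefSeq start was cut back to the bases that precede any annotated exon of the gene. For Morc2a that left 2 bases, and none is shown. Capitals mark the CCAAT box in either orientation (CCAAT or ATTGG).
Mphosph8, chr14:56667998-56668234, plus strand: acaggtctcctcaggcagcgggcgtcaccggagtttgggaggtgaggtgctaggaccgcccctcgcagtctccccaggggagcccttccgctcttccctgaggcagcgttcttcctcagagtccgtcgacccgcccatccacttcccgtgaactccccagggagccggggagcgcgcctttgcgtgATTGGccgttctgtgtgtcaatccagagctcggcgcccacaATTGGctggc
Atf7ip, chr6:136518601-136518788, plus strand: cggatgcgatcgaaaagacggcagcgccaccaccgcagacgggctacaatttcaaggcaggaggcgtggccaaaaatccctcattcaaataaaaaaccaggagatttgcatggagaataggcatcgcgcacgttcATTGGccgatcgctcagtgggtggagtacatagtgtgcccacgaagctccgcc
Smarcad1, chr6:65042341-65042582, plus strand: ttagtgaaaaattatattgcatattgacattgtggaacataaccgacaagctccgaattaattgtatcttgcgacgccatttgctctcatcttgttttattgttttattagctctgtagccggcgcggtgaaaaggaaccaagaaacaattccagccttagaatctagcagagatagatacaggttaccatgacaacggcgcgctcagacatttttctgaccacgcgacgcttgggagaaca
Atrx, chrX:105929404-105929622, minus strand: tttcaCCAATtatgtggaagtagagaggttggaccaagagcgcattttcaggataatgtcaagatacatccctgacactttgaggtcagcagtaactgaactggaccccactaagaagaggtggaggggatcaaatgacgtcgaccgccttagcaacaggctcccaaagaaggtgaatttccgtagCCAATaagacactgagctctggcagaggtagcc
Mphosph8, the gene that rose, and Atrx, a gene that fell, each hold 2 CCAAT boxes in the stretch shown. Atf7ip holds 1 and Smarcad1 none. Over the full 250-base windows, CCAAT was found on either strand in 6 of the 10 genes and in 34.5% of 27025 RefSeq promoters. The GC box, GGGCGG on either strand, was found in 8 of the 10 and in 33% of all promoters, and Smarcad1 and Atrx lacked it. GC content of the 10 windows ran from 43.2% in Smarcad1 to 73.2% in Cbx3, against a median of 52.0% over all promoters. The part of GC content in these matches was not tested. The full windows also hold exon bases. Cut back to the bases before annotated exons, Cbx3, Morc2a and Atf7ip held no GC box, and Cbx5 and Morc2a no CCAAT box. The windows of all promoters were not cut in this way. A match is only a match of letters, and no binding was measured here.

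Gene counts summed to 26251822 to 68260809 per library, and every library had 307 to 36192 counts of each of the 10 genes. Levels below are counts-per-million values (CPM) of the gene counts, scaled with TMM factors over the 14246 genes listed in all 3 cell sets. Fold changes and adjusted p-values come from edgeR's quasi-likelihood test over all genes, and a gene was called at an adjusted p under 0.05. Defining markers followed the labelled fractions: Itgam, which encodes Cd11b, averaged 3341 and 3345 CPM in old Cd11b MT and WT cells against 72.4 and 49.7 CPM in LK MT and WT cells, and Cd34 averaged 140.02 and 149.8 CPM in LK MT and WT cells against 2.42 and 1.17 CPM in old Cd11b MT and WT cells. Kit, which encodes c-Kit, differed less. It averaged 180 and 211 CPM in LK MT and WT cells against 63.1 and 64.6 CPM in old Cd11b MT and WT cells. Young Cd11b MT and WT cells had 101 and 109 CPM of Kit and 31.9 and 32.1 CPM of Cd34. Libraries stood apart in 3 ways. The row of 7SK, an RNA without a poly(A) tail, stood at 6124 to 11880 CPM of the gene total in the 7 young libraries and at 3.33 to 5.37 CPM in the 12 libraries of 18 months, so age cannot be told apart from this difference between the sets of libraries. In each 18-month group, replicates 2 and 3 were more alike than either was to replicate 1, with a chi-square per degree of freedom of 2.96 to 6.51 against 13.97 to 46.07. Those values are above sampling noise, so the libraries were kept apart and results are also given with the pair summed. In the young set, MT replicate 3 and WT replicate 4 differed from the others in sex-linked genes.

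**Figure D1:**
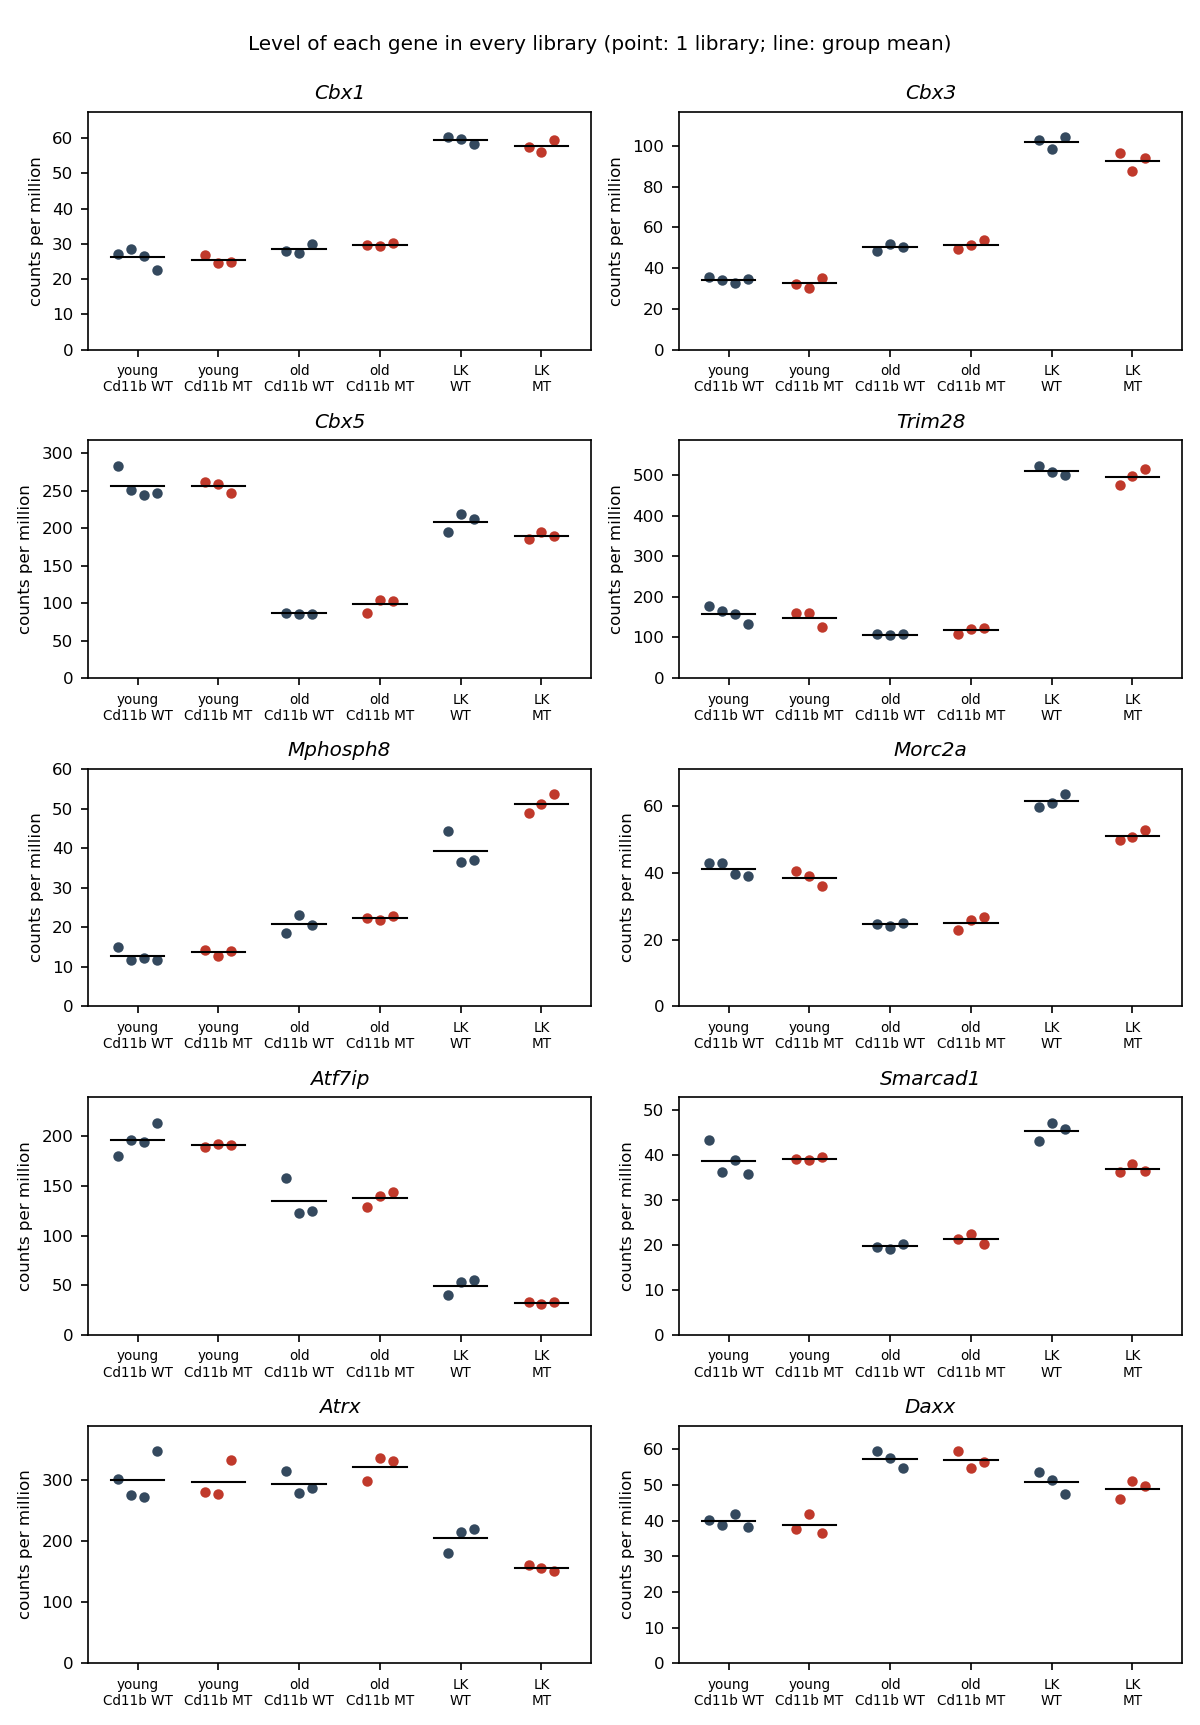
Level of each of the 10 genes in every library, in CPM on axes that start at 0, with 1 point per library (WT dark, MT red) and a line at the group mean. Trim28 reached 475 to 523 in LK libraries against 105 to 123 in old Cd11b libraries, while Atf7ip ran the other way, at 30.8 to 55.1 against 123 to 158.

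The largest differences among these genes lay between cell fractions. All 10 genes differed between LK and old Cd11b cells, in WT and in MT alike: 7 were higher in LK cells and 3 were lower. Background was high, since 86.8% of all genes tested were called in WT (45.1% higher, 41.7% lower) and 87.8% in MT (45.9% higher, 41.9% lower), so the count of 10 is no trait of these genes. Groups did not overlap for any of the 10, as for 88.6% of all genes in WT and 89.5% in MT. The 10 fold changes had a median log2 of 0.94 in WT and 0.80 in MT, against medians of 0.08 and 0.10 over all genes. As in every bulk comparison here, fewer cells of a type and less RNA per cell cannot be told apart.

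Trim28 (chr7:13024152-13031032, RefSeq) encodes the corepressor that links zinc finger proteins to SETDB1. It was at 475, 499 and 514 CPM in LK MT libraries and at 523, 508 and 499 CPM in LK WT libraries. In old Cd11b cells it was at 109, 120 and 123 CPM in MT and at 108, 105 and 107 CPM in WT. Every LK library was far above every Cd11b library. In WT the LK level was 4.47-fold the Cd11b level (log2 2.16 ± 0.04 SE, n = 3 and 3, adjusted p = 1.21e-09 by edgeR), and in MT it was 3.94-fold (log2 1.98 ± 0.05, adjusted p = 4.89e-10).

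Atf7ip (chr6:136518789-136610850), the SETDB1 partner, ran opposite to Trim28. Its old Cd11b levels were 129, 140 and 144 CPM in MT and 158, 123 and 124 CPM in WT. Its LK levels were 32.9, 30.8 and 33.6 CPM in MT and 40.3, 53.3 and 55.1 CPM in WT. All Cd11b libraries were above all LK libraries, and the LK level was 2.91-fold lower in WT (log2 -1.54 ± 0.15, adjusted p = 1.41e-05 by edgeR) and 4.56-fold lower in MT (log2 -2.19 ± 0.05, adjusted p = 2.30e-10). Trim28 and Atf7ip act on the same methyltransferase, and their transcripts were at opposite ends of the list in LK cells. Per kilobase of exon, Trim28 was first of the 10 in LK WT cells at 157 CPM per kb and Atf7ip last at 6.15 CPM per kb.

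The 3 HP1 genes, readers of methylated H3K9, were all higher in LK cells. Cbx5, which encodes HP1 alpha, rose by log2 1.18 ± 0.06 in WT and 0.85 ± 0.06 in MT. Cbx1, which encodes HP1 beta, rose by log2 0.96 ± 0.05 and 0.85 ± 0.04, and Cbx3, which encodes HP1 gamma, by 0.92 ± 0.05 and 0.75 ± 0.05. The adjusted p of these 6 values lay between 3.69e-08 and 6.18e-07 by edgeR. Among them, Cbx5 made up 56.4% ± 1.82 (SD, n = 3) of the summed HP1 counts in LK WT cells and 52.3% ± 0.90 in old Cd11b WT cells. In MT the shares were 55.8% ± 1.49 and 54.7% ± 1.97. The difference in share between fractions was not tested.

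**Figure D2:**
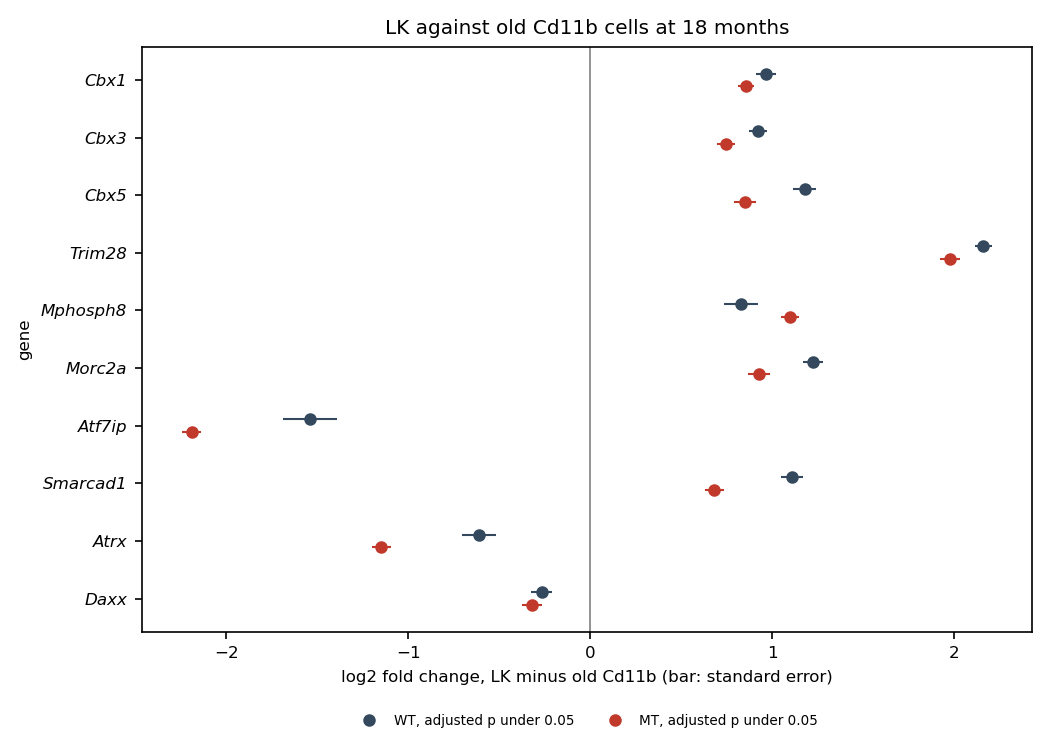
Log2 fold change of LK against old Cd11b cells at 18 months for the 10 genes, in WT (dark) and MT (red), with bars of 1 standard error, and all 20 values called at adjusted p under 0.05. Trim28 is at 2.16 in WT and 1.98 in MT, and Atf7ip at -1.54 and -2.19.

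Mphosph8 and Morc2a, the HUSH genes of the list, were higher in LK cells too. Morc2a (chr11:3649189-3690477), which encodes the mouse MORC2 ATPase, rose by log2 1.22 ± 0.06 in WT and 0.92 ± 0.06 in MT (adjusted p = 9.23e-08 and 2.67e-07 by edgeR). Mphosph8 (chr14:56668235-56697430), the chromodomain subunit of HUSH, rose by log2 0.83 ± 0.09 in WT and by 1.10 ± 0.05 in MT (adjusted p = 3.91e-05 and 1.63e-08). Mphosph8 was the only one of the 7 higher genes with the larger value in MT. Smarcad1 (chr6:65042591-65116061), the remodeller, rose by log2 1.11 ± 0.06 in WT and 0.68 ± 0.05 in MT (adjusted p = 3.80e-07 and 8.56e-07).

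The H3.3 chaperone pair was lower in LK cells. Atrx (chrX:105797615-105929372), the ATPase of the pair, fell by 0.61 ± 0.09 on the log2 scale in WT and by 1.15 ± 0.05 in MT (adjusted p = 0.000296 and 1.83e-08 by edgeR). Daxx (chr17:33909404-33915590), the H3.3 chaperone itself, fell by 0.27 ± 0.06 in WT and 0.32 ± 0.05 in MT (adjusted p = 0.00173 and 0.000299). All 20 calls between fractions held in each of 13 alternative fits per comparison. The size of the Atrx value did not: with the trend of each library with gene length and GC content removed, it was -0.17 in WT and -0.28 in MT.

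The next question was whether MT and WT libraries differed within a fraction. In LK cells 6 of the 10 genes were called, 1 higher and 5 lower in MT. Of all genes tested in LK cells 29.8% were called, 13.9% higher and 15.9% lower, so being called is common there. The median log2 fold change of the 10 was -0.17 against 0.02 over all genes. MT and WT libraries did not overlap for 7 of the 10, against 44.3% of all genes.

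Mphosph8 was the gene that rose. It was at 48.9, 51.2 and 53.7 CPM in LK MT libraries and at 44.4, 36.6 and 37.1 CPM in LK WT libraries. All MT libraries were above all WT libraries, with WT replicate 1 the closest. It rose 1.28-fold in MT (log2 0.35 ± 0.07, adjusted p = 0.00940 by edgeR).

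Atf7ip fell most. Its LK MT libraries, at 30.8 to 33.6 CPM, lay below its WT libraries, of which replicate 1 was again nearest to MT at 40.3 CPM and the other two were at 53.3 and 55.1 CPM. It fell by 0.64 ± 0.12 on the log2 scale (1.56-fold lower, adjusted p = 0.0110 by edgeR). Atrx was at 160, 155 and 151 CPM in MT and at 180, 215 and 219 CPM in WT. It fell by 0.43 ± 0.09 (1.34-fold lower, adjusted p = 0.0118), and WT replicate 1 was the lowest WT library here as well.

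Smarcad1 was at 36.2, 37.9 and 36.5 CPM in LK MT and at 43.2, 47.2 and 45.7 CPM in LK WT. It fell by 0.33 ± 0.05 (1.26-fold lower, adjusted p = 0.00710 by edgeR). Morc2a was at 49.8, 50.8 and 52.8 CPM in MT and at 59.7, 61.0 and 63.5 CPM in WT. It fell by 0.29 ± 0.05 (1.23-fold lower, adjusted p = 0.00693). For both genes the groups were clear of each other. The HUSH genes of the list moved in opposite directions, since Mphosph8 rose and Morc2a fell. The count of Mphosph8 per count of Morc2a was 1.0 ± 0.02 (SD, n = 3) in LK MT and 0.64 ± 0.09 in LK WT. That ratio had p = 0.1 by a two-sided exact permutation test, the smallest that 3 against 3 can give, and 0.54 after adjustment over 27 ratio tests.

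Among the HP1 genes edgeR called only Cbx3 in LK cells. DESeq2 called Cbx5 as well (adjusted p = 0.0240), and the edgeR fit of all 19 libraries did not call Cbx3 (adjusted p = 0.113). It was at 96.3, 87.5 and 94.1 CPM in MT and at 103, 98.4 and 104 CPM in WT, and it fell by 0.16 ± 0.05 (adjusted p = 0.0457 by edgeR). Cbx5 did not overlap between genotypes either, at 186 to 194 CPM in MT and 195 to 219 CPM in WT, and its log2 value of -0.17 ± 0.06 missed the threshold (adjusted p = 0.0537). Cbx1 (-0.07 ± 0.04), Trim28 (-0.07 ± 0.04) and Daxx (-0.08 ± 0.05) had overlapping groups and were not called, with adjusted p of 0.181, 0.183 and 0.227. The Cbx5 shares of HP1 counts given above overlapped between LK genotypes (p = 0.8 by the two-sided exact permutation test, whose smallest value here is 0.1). Counted per kilobase, the Cbx1 share did not overlap in LK cells, at 25.3% to 26.2% in MT and 23.9% to 25.1% in WT. Nor did the Cbx3 share in old Cd11b cells, at 52.4% to 53.6% in MT and 53.8% to 56.0% in WT. Both had an exact p of 0.1, and 0.54 adjusted over the 27 ratio tests, so with 3 against 3 these shares can be shown neither to differ nor to be alike.

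**Figure D3:**
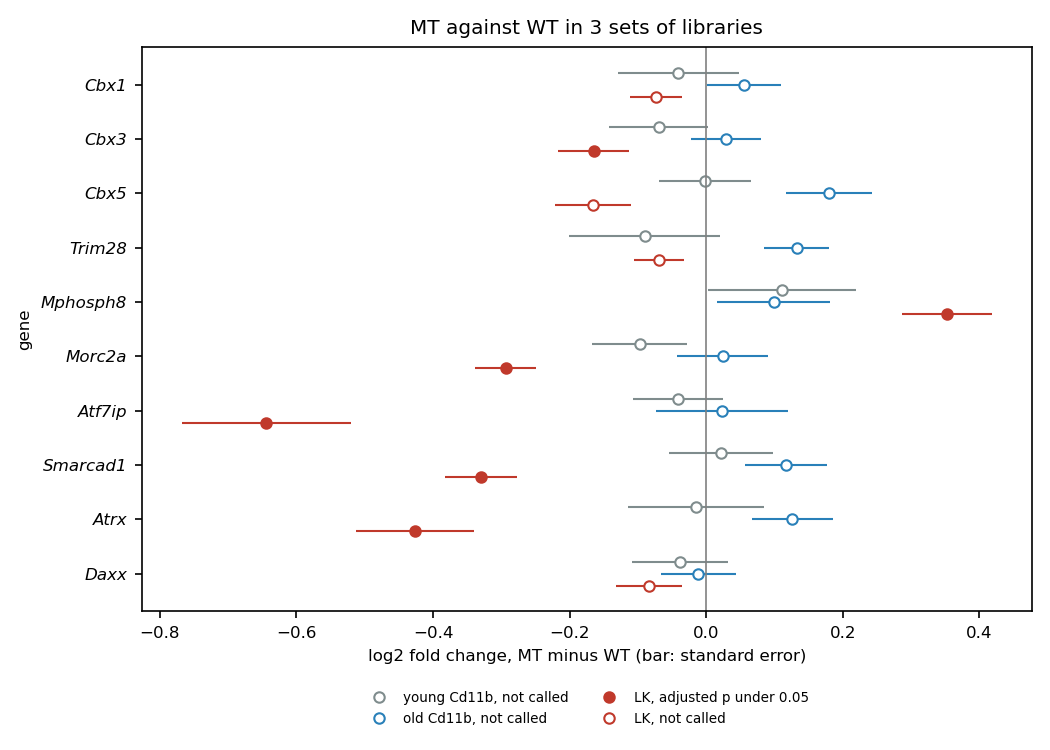
Log2 fold change of MT against WT for the 10 genes in young Cd11b (grey), old Cd11b (blue) and LK cells (red), with bars of 1 standard error; filled points have an adjusted p under 0.05. The 6 filled points are all in LK cells, from -0.64 for Atf7ip to 0.35 for Mphosph8.

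These LK calls depend on how the near-alike libraries are counted and on single libraries. With replicates 2 and 3 of each group summed, none of the 10 was called and adjusted p by edgeR ran from 0.175 to 0.564; 5 of the 10 had an unadjusted p under 0.05 there, and the direction of all 10 stayed. Mphosph8, Morc2a and Smarcad1 were called in each of the 6 fits that left out 1 library. Atf7ip lost its call without MT replicate 2 (adjusted p = 0.0517) and without WT replicate 2 (0.0552). Atrx lost it without MT replicate 2 (0.0539), MT replicate 3 (0.0543), WT replicate 2 (0.0598) and WT replicate 3 (0.0544). Cbx3 lost it in the same 4 fits, with adjusted p of 0.165, 0.129, 0.0887 and 0.138. Without WT replicate 1, 7 of the 10 genes were called, with Cbx5 added at log2 -0.25 (adjusted p = 0.000676). The number called over all genes moved too. It was 5569 of 14342 without WT replicate 1, and 981 to 1185 in the 4 fits without replicate 2 or 3.

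Gene length ran with the LK genotype difference. Across 13712 genes the log2 fold change had a Spearman rho of -0.48 with summed exon length, given as a description, since genes share the same libraries. The genes that fell most are long: Atf7ip has 8.06 kb of exon, Atrx 12.7 kb, Morc2a 5.66 kb and Smarcad1 5.54 kb. In the group of the longest genes, which holds Atf7ip, Atrx and Cbx5, the median over 1143 genes was -0.23. With the trend of each library with length and GC content removed, the same 6 genes were called, 1 higher and 5 lower, where 20.0% of all genes were called. Mphosph8 kept its size at 0.35 ± 0.06 and Cbx3 grew to -0.27 ± 0.06. Atf7ip shrank to -0.39 ± 0.08, Smarcad1 to -0.17 ± 0.04, Morc2a to -0.14 ± 0.04 and Atrx to -0.12 ± 0.03. Cbx5 turned to 0.11 ± 0.03 and was not called (adjusted p = 0.0504 by edgeR).

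**Figure D4:**
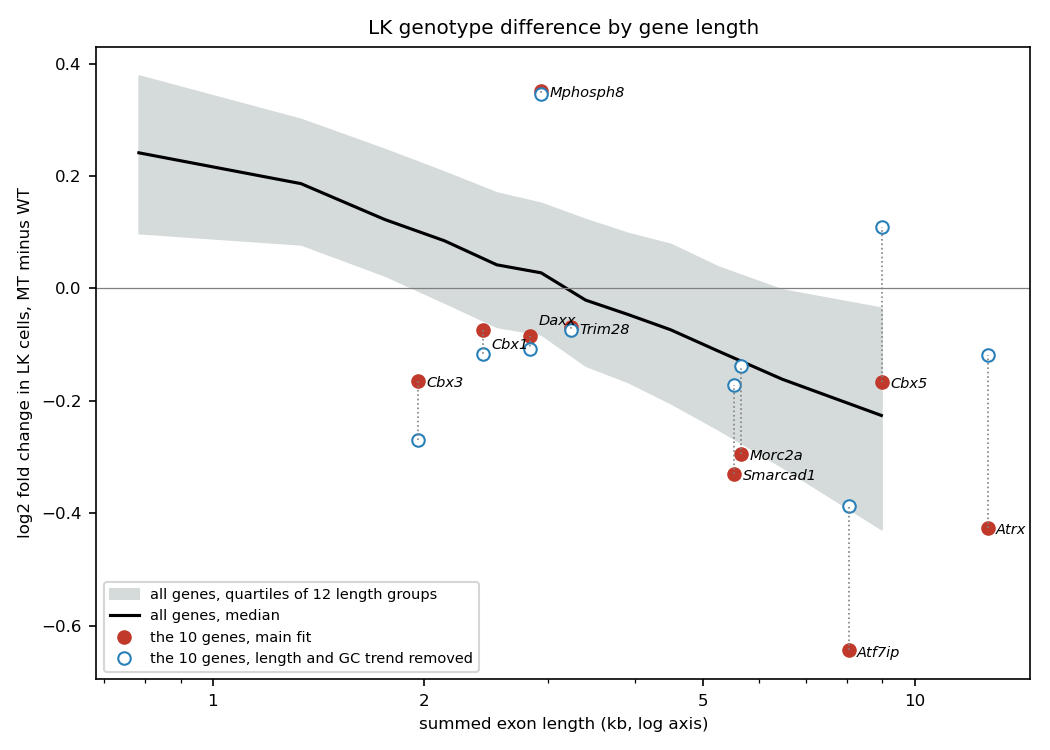
LK genotype difference (log2, MT minus WT) against summed exon length on a log axis; the line and band give the median and quartiles of all genes in 12 length groups, red points the 10 genes, and open blue points the same genes after removal of the length and GC trend. Mphosph8 stays at 0.35, while Atrx moves from -0.43 to -0.12 and Cbx5 from -0.17 to 0.11.

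Summed markers of some other cells differed between the LK genotypes. In some lists every tested gene went the same way, and in others the genes were mixed. The 8 mature neutrophil markers summed to 1014, 3219 and 3099 CPM in LK MT replicates 1 to 3 and to 873, 483 and 459 CPM in WT, against 110173 to 136500 CPM in old Cd11b libraries. None of these markers was at 0 in all libraries. All 7 tested had values above 0, with a median log2 of 2.22, and 1 of the 7 was called, higher in MT. The lowest MT library and the highest WT library of this sum are the replicates 1. The 12 cell cycle genes summed to 4012 to 4080 CPM in MT and 4350 to 4624 CPM in WT. The 8 progenitor markers summed to 934 to 1007 and 1006 to 1026 CPM, and the erythroid markers to 1410 to 1454 and 1575 to 1660 CPM, in MT and WT. The progenitor sums overlapped. Of 12 cell cycle genes 2 were called higher and 5 lower in MT. Of 8 progenitor markers 2 were called lower and 3 had values above 0. Of 5 erythroid markers 1 was called lower and 0 had values above 0. Of 6 monocyte and macrophage markers 1 was higher and 3 lower. Of 5 megakaryocyte and 5 T and NK markers 1 each was higher, and of 5 B lineage markers none was called. All 5 megakaryocyte and all 5 B lineage values were above 0, as were 4 of the 5 T and NK values. Over all genes 13.9% were called higher and 15.9% lower. The part of these markers in the differences of the 10 genes was not tested.

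In old Cd11b cells none of the 10 genes was called by edgeR or DESeq2. Over all genes edgeR called 0.336% (0.127% higher, 0.209% lower) and DESeq2 called 515 of 13398. Of the 10, 2 had an unadjusted p under 0.05 by edgeR. Those were Cbx5 and Trim28. Cbx5 was at 87.3, 104 and 103 CPM in MT and at 87.4, 85.5 and 86.0 CPM in WT, with MT replicate 1 inside the WT range (log2 0.18 ± 0.06, adjusted p = 0.221). Trim28 had its MT libraries above its WT libraries by a small margin (log2 0.13 ± 0.05, adjusted p = 0.229). Smarcad1 was the other gene without overlap, so 2 of 10 did not overlap, against 22.6% of all genes. Of the 10 values 9 were above 0, from 0.02 for Atf7ip to 0.18 for Cbx5, and Daxx was at -0.01. With the length and GC trend removed, Atf7ip (-0.03) and Morc2a (-0.01) were below 0 and Daxx (0.02) above it. Leaving out MT replicate 1 brought the Cbx5 call (log2 0.25, adjusted p = 0.0327 by edgeR), where 310 of 13559 genes were called. Leaving out WT replicate 1 brought calls of Atrx (0.18, adjusted p = 0.0347) and Atf7ip (0.15, adjusted p = 0.0487). In that fit 1819 of 13663 genes were called, so being called was far more common there than in the main fit.

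In young Cd11b cells none of the 10 was called by edgeR or DESeq2 and none had an unadjusted p under 0.05. There edgeR called 0.0% of all genes and DESeq2 called 19 of 13755. Log2 values ran from -0.10 for Morc2a to 0.11 for Mphosph8, each with an adjusted p of 0.999, and MT and WT libraries overlapped for all 10 (4.41% of all genes did not). Atf7ip, the gene with the largest LK difference, was at 189, 192 and 191 CPM in young MT and at 180, 197, 195 and 214 CPM in young WT. Its log2 value of -0.04 ± 0.07 was within the spread. No gene of the 10 was called with the 2 libraries of differing sex-linked genes left out, where 69 of 13874 genes were called. The change of the genotype difference with age in Cd11b cells was tested as an interaction: 0 of 10 were called by edgeR or DESeq2 and 0 had an unadjusted p under 0.05, where edgeR called 0.0214% of all genes. The interaction estimates ran from -0.01 for Mphosph8 to 0.22 for Trim28.

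The genotype difference changed with cell fraction at 18 months for 6 of the 10 genes, all lower in LK cells relative to Cd11b cells. Over all genes 20.7% were called in this interaction, 12% in that direction and 8.79% in the other. Atf7ip had the lowest estimate (log2 -0.67 ± 0.18, adjusted p = 0.0260 by edgeR), followed by Atrx (-0.56 ± 0.12, adjusted p = 0.0113) and Smarcad1 (-0.45 ± 0.08, adjusted p = 0.00641). Cbx5 (-0.35 ± 0.10), Morc2a (-0.32 ± 0.08) and Trim28 (-0.21 ± 0.07) were called too. Their adjusted p were 0.0249, 0.0202 and 0.0416. Cbx5 and Trim28 were called by edgeR in neither fraction alone and had values of opposite sign in the fractions. Mphosph8, although it rose in LK cells, was not called here (0.24 ± 0.10, adjusted p = 0.116), and its old Cd11b value of 0.10 ± 0.08 had the same sign.

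Only 1 of these 6 interaction calls held in all fits but 1: Smarcad1 was called in 18 of 19 alternatives, and was lost with replicates 2 and 3 summed (adjusted p = 0.363). In that summed fit none of the 10 was called, and edgeR called 0 of all genes. Atrx was lost there and with the length and GC trend removed, where it shrank to -0.14 (adjusted p = 0.0865). With that trend removed, Cbx5 was at 0.01 and Morc2a at -0.13, and neither was called. Trim28 and Smarcad1 stayed called there and Cbx3 was called at -0.29 (adjusted p = 0.0454), so that 3 of 10 were called where 11.8% of all genes were. Leaving out single libraries left 2 to 7 of the 10 called. Over all genes those fits called from 1129 of 14099, without LK WT replicate 2, to 4168 of 14089, without old WT replicate 1. Among the 10, the lowest count of 2 came without old MT replicate 2 or 3, old WT replicate 2 and LK WT replicate 2 or 3. The highest of 7 came without old WT replicate 1. Atf7ip was lost without any of replicates 2 and 3 of the 4 groups, with adjusted p of 0.0510 to 0.0678. Of the 12 fits that left out 1 library, Cbx5 lost its call in 7 (adjusted p of 0.0569 to 0.0725), Morc2a in 6 (0.0524 to 0.0648) and Trim28 in 10 (0.0804 to 0.147). Mphosph8 gained a call without old WT replicate 1 (adjusted p = 0.0306) and without LK WT replicate 1 (0.0218).

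Old and young Cd11b cells differed for 8 of the 10 genes in WT and 9 in MT, where edgeR called 73.1% of all genes in WT (36.1% higher, 36.9% lower) and 71.7% in MT (35.2% higher, 36.5% lower). The same 8 and 9 genes had no overlap between ages, as had 72.3% of all genes in WT and 76.0% in MT. These values cannot be told apart from the 7SK difference between the sets given above. Cell markers differed between the sets too. All 8 mature neutrophil markers were called higher in old cells, with a median log2 of 1.55 in WT and 1.45 in MT. All 8 progenitor markers were called lower, with medians of -2.25 and -2.27. Their part in the values of the 10 genes was not tested. Cbx5 was at 244 to 283 CPM in the 7 young libraries and at 85.5 to 104 CPM in the 6 old ones, with a log2 difference, old minus young, of -1.59 ± 0.07 in WT and -1.42 ± 0.07 in MT (adjusted p = 3.55e-08 and 3.84e-07). No other of the 10 moved as far. Its share of the HP1 counts was 79.9% to 82.5% in young and 51.7% to 56.4% in old libraries. Smarcad1 (-0.99 and -0.91), Morc2a (-0.76 and -0.66), Trim28 (-0.59 and -0.38) and Atf7ip (-0.56 and -0.51) were also lower in old cells, in WT and MT. Mphosph8 (0.69 and 0.66), Cbx3 (0.53 and 0.62) and Daxx (0.51 and 0.51) were higher. Cbx1 (0.10 and 0.18) was called in MT alone, and Atrx (-0.05 and 0.08) in neither. With length and GC trends taken out, Cbx5 was at -1.003 and -0.87, Cbx3 at 0.16 and 0.26 and Daxx at 0.24 and 0.26. Atrx was then called higher in old cells (0.80 and 0.86), and Atf7ip was not called (-0.06 and -0.05). The comparisons in WT and in MT share no library, but both set the same 2 sets against each other.

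**Figure D5:**
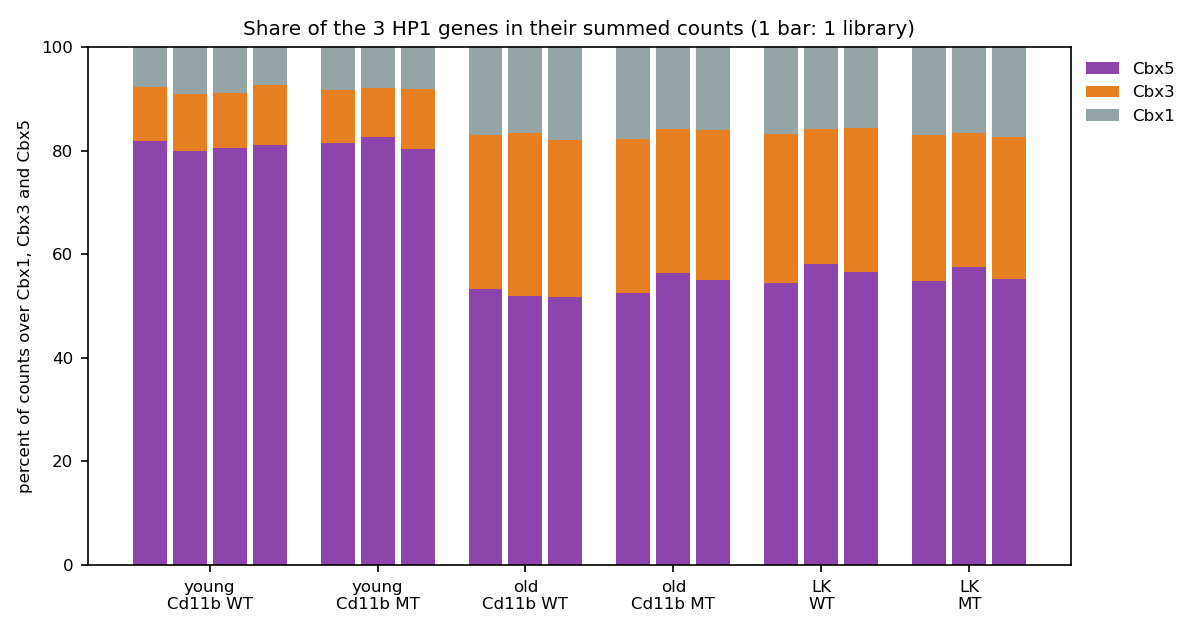
Percent of the summed Cbx1, Cbx3 and Cbx5 counts that each gene held in every library, with 1 bar per library and bars grouped by cell fraction, age and genotype. Cbx5 holds 79.9% to 82.5% in young Cd11b libraries and 51.7% to 58.0% in the old Cd11b and LK libraries.

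Corrected for exon length, Trim28 was the most abundant of the 10 in all 6 groups, from 32.9 CPM per kb in old Cd11b WT to 157 CPM per kb in LK WT. In old Cd11b cells Cbx3 and Atrx came next, with Cbx3 clear of Atrx in WT but overlapping it in MT. Smarcad1 was last there, at 3.55 CPM per kb in WT and 3.87 CPM per kb in MT. In LK cells Cbx3 was next, at 51.9 CPM per kb in WT and 47.2 CPM per kb in MT. Cbx1 and Cbx5 followed. Mphosph8 was the fifth in LK MT cells at 17.4 CPM per kb, overlapping Daxx, and the seventh in LK WT cells at 13.4 CPM per kb, below Atrx, whose range it overlapped. In young Cd11b cells Mphosph8 was last, at 4.34 CPM per kb in WT and 4.68 CPM per kb in MT, and Atf7ip the third, overlapping Atrx.

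Partner genes were read from 7 lists with 52 listed genes. In LK cells 26 were lower and 2 higher in MT, with a median log2 of -0.13, where 15.9% and 13.9% of all genes were called in those directions; in old and in young Cd11b cells edgeR called none. Of 5 HUSH partners 3 were lower: Tasor, the scaffold of the complex (-0.34 ± 0.09, adjusted p = 0.0248 by edgeR, listed as D14Abb1e), the methyltransferase Setdb1 (-0.22 ± 0.04, adjusted p = 0.00988) and Morc3 (-0.15 ± 0.03, adjusted p = 0.0167). Tasor kept -0.34 with the length and GC trend removed, while Setdb1 went to -0.13 and Morc3 was no longer called. So Mphosph8 rose while its scaffold partner Tasor and Morc2a fell.

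Of 8 H3K9 methyltransferase genes and partners 5 were lower, among them Setdb1 again and the G9a partners Wiz (-0.28 ± 0.05) and Zfp644 (-0.30 ± 0.06). Of 6 H3K9 demethylases, which remove the mark, 4 were lower, including Kdm3b (-0.38 ± 0.07), Kdm3a (-0.28 ± 0.05) and Kdm4a (-0.21 ± 0.05). Of 15 HP1 and TRIM28 partners 8 were lower, with Smchd1 (-0.45 ± 0.08), Adnp (-0.25 ± 0.04) and Trim33 (-0.24 ± 0.04) having the smallest adjusted p. Of 9 genes of H3.3 deposition and PML bodies 4 were lower and 1 higher. The chaperone genes Hira (-0.30 ± 0.04) and Cabin1 (-0.39 ± 0.07) fell, and H3f3b, which encodes H3.3 itself, rose (0.19 ± 0.04, from a mean of 795 CPM in WT to 925 CPM in MT). Of 3 genes of DNA methylation upkeep, Dnmt1 (-0.37 ± 0.06) and Hells (-0.16 ± 0.04) fell and Uhrf1 (-0.08 ± 0.03) was not called. Of 7 SUMO pathway genes 1 was lower, Uba2 (-0.13 ± 0.03), and 1 was higher. Their median log2 was 0.04, against 0.02 over all genes. Once the trends with length and GC content were taken out, Wiz, Zfp644, Kdm4a, Trim33 and Hells were not called, and Trim33 and Hells changed sign.

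Patterns across all 19 libraries were described by Pearson's r of log2 CPM among 10140 genes. Trim28 was most like Slc29a1 (r = 0.999) and Atf7ip most like Abhd2 (0.998). Mphosph8 was most like Sec11a (0.994), Morc2a most like Urb2 (0.994) and Cbx5 most like Sept11 (0.994). Cbx3 was most like Ndufs1 (0.993), Smarcad1 most like Gnl3l (0.989), Atrx most like Mdm4 (0.989) and Daxx most like Csnk1d (0.973). The libraries fall into 3 sets that differ in cell fraction and in 7SK content, so these values mostly rank genes by their levels in those sets.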

How the data were processed

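RNA-seq was done on 19 bone-marrow libraries of mice. Per the labels' protocols, RNA came from a column kit and libraries from a directional kit. For each library the authors deposited raw read counts, 1 file by gene symbol and 1 by repeat subfamily. The submitters' processing notes name STAR, HTSeq, DESeq2 and mm10, without roles or versions; use of strand and of reads with several matches is not given in the sources used here, so Cbx1, Cbx3 and Cbx5, which have processed pseudogenes, could share reads with them. Repeat counts were used only for the 7SK row.

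Groups and replicate numbers came from the sample titles. Counts were tested with edgeR 4.0.16 in R 4.3.3 (filterByExpr, TMM factors, robust quasi-likelihood fit, Benjamini-Hochberg over all genes tested), each of 9 comparisons on its own libraries. The standard error is the log2 fold change divided by the root of the F statistic. Alternatives were DESeq2 1.42.0, RLE factors in edgeR, a fit without the filter, a replicate block, a fit of all 19 libraries, removal of the trend with exon length and GC content (GENCODE vM21, splines with 5 degrees of freedom, 95.5% of genes matched), replicates 2 and 3 summed, and libraries left out. The fit was tested on simulated counts first. Ratios of counts were compared by exact permutation with scipy 1.17.1.

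Named genes were the 10 genes, up to 3 genes per partner list with the smallest adjusted p in LK cells, and the gene most like each of the 10 in log2 CPM (prior count 2) among genes with a mean of 5 CPM or more. A few values that this rule names are not reported here. The 10 genes and the lists were chosen with earlier results of these data known, so nothing in them is independent support. Libraries of the same number did not all deviate together, so numbers were not used as pairs.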

Additional observations from a re-analysis of the deposited data

Results flagged for a closer look

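Of the 10 genes, 6 had a genotype difference that changed between LK and old Cd11b cells by a test of the difference itself, as an interaction in edgeR. The log2 estimates were -0.35 for Cbx5, -0.21 for Trim28, -0.32 for Morc2a, -0.67 for Atf7ip, -0.45 for Smarcad1 and -0.56 for Atrx, and 20.7% of all genes were called in that test. All 6 calls were lost with replicates 2 and 3 of each group summed.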

How the results depend on the processing

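In LK cells the count of called genes among the 10 was 6, and it was 0 with the replicate block, 0 with replicates 2 and 3 summed and 3 to 7 with single libraries left out. DESeq2 called 7 of the 10 in LK cells, with Cbx5 added, and the fit of all 19 libraries called 5, without Cbx3. Over all genes the LK count of 4206 became 4545 with DESeq2 and 2987 with the fit of all 19 libraries. It fell to 3 with the block and to 3 with the pair summed, and ran from 981 to 5569 with single libraries left out. For the genotype by cell fraction interaction the count among the 10 was 6. It was 3 with the length and GC trend removed, 0 with replicates 2 and 3 summed and 2 to 7 with single libraries left out. Over all genes the interaction count was 2904, and in those fits it was 1657, 0 and 1129 to 4168. In old Cd11b cells 0 of the 10 were called, and 0 to 2 with single libraries left out, where 0 to 1819 of all genes were called. Values called in either fit that changed sign once length and GC trends were taken out were Cbx5 in the interaction (0.0118), Atrx in old against young WT cells (0.80) and Cbx1 in old against young MT cells (-0.0744); values called in neither fit also changed sign, among them Cbx5 in LK cells (0.11) and Atf7ip (-0.03), Morc2a (-0.01) and Daxx (0.02) in old Cd11b cells. All 260 alternative values of LK against old Cd11b cells kept direction and call. The replicate block ended the LK calls (adjusted p of 0.0666 or more by edgeR). The labels do not say whether same-numbered libraries share more than a number. In LK cells their deviations had correlations of -0.489, -0.353 and -0.231, and these do not decide it. Each of the 10 genes had at least 307 counts in every library.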
